A study of Mus musculus with 16 samples.

Results

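The genes described here are 33 genes of the oligodendrocyte lineage: precursor genes, genes of committed and newly formed oligodendrocytes, myelin and mature oligodendrocyte genes, and the lineage transcription factors, with Olig1 and Olig2 among them. They were taken by gene symbol from a table of 55385 genes, in which all 33 were found and all 33 passed the low-count filter that left 17555 genes for testing. The libraries were made from polyadenylated RNA of the brain cortex of mice aged 9 months, 16 samples in 4 groups of 4 with 2 females and 2 males each. One group was wild-type C57BL/6J, the others were labelled Dp16, 5xFAD or 5xFAD-Dp16, and no group received a treatment. In Dp16 mice the distal stretch of chromosome 16 is duplicated, whose genes have their counterparts on human chromosome 21, so that these genes, Olig1 and Olig2 among them, are present in 3 copies. 5xFAD mice carry human transgenes with familial Alzheimer's disease mutations under the Thy1 promoter, which is active mainly in neurons, and they form amyloid plaques. 5xFAD-Dp16 mice carry both. The comparisons read the lineage with 3 and with 2 copies of the segment, in cortex without and with the amyloid transgenes.

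Oligodendrocytes wrap axons in myelin, a stack of lipid-rich membrane held together by a small set of abundant proteins. They arise throughout life from dividing precursors that carry the receptor Pdgfra and the proteoglycan Cspg4, pass through a short committed and newly formed stage marked by genes such as Gpr17, Bcas1 and Enpp6, and then switch on the genes for myelin proteins and myelin lipids. Olig2 and Olig1 are basic helix-loop-helix transcription factors that specify the lineage, Sox10 maintains it, and Myrf turns on the myelin genes when a precursor matures. In cortex these cells lie in the grey matter and in the underlying white matter. In bulk tissue, fewer cells of a type and less RNA per cell cannot be told apart.

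All of the stages were represented in every library, since the lowest count of any member in any library was 66. Levels per length of transcript (the authors' RPKM, mean over the 16 libraries) were highest for the myelin protein genes, from 15.2 to 582, with Mbp, myelin basic protein, at the top. Enzyme genes ran from 5.45 to 235 RPKM. Precursor genes were the lowest stage, from 1.14 for Cspg4 to 4.32 for Tnr. Olig1 stood at 53.1 RPKM, Olig2 at 12.5, Sox10 at 11.9 and Myrf at 6.68. The 33 genes together took between 0.551% and 1.201% of a library's counts, and Mbp alone between 0.262% and 0.662%.

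Library totals ran from 16874481 to 22912168 counts. Thy1, whose promoter drives the transgenes, was 736 to 1051 CPM (counts scaled to library size, TMM-normalized here and below) in the 8 libraries labelled without the transgenes and 1542 to 2205 in the 8 labelled with them. App, a gene of the triplicated segment, averaged 1315 ± 413 CPM in wild-type and 1867 ± 454 in Dp16, and with the transgenes 1139.8 ± 172 in 5xFAD against 1977 ± 277 in 5xFAD-Dp16 (mean ± SD, n = 4), and its wild-type and Dp16 libraries overlapped. Libraries of the same group differed in their length slope, and whether that reflects RNA quality, library preparation or the makeup of the tissue was not tested. The length slope of a library is the slope of its log2 CPM, relative to the mean of all libraries, on log2 gene length, so that a negative slope means that long genes were counted less. It ran from -0.44 in wild-type replicate 3 to 0.28 in wild-type replicate 1. The next lowest were Dp16 replicates 4 and 3 at -0.18 and -0.17, followed without a gap by 5xFAD replicate 2 at -0.13 and 5xFAD-Dp16 replicate 2 at -0.11, so that wild-type replicate 3 alone stood apart. Results are also given without the 3 libraries of lowest slope, a number that no gap in the slopes sets.

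Olig1 and Olig2 lie 41094 bases apart on chromosome 16 (GRCm38, plus strand; Olig2 at chr16:91225457-91228677, Olig1 at chr16:91269772-91271933, a gene of a single exon). Neither passed a test for a difference in the groups with 3 copies. Olig1 was 135, 90.5, 59.8 and 118 CPM in wild-type replicates 1 to 4 and 142, 138, 78.8 and 69.8 in Dp16. It was 171, 95.2, 143 and 77.5 CPM in 5xFAD and 133, 95.2, 135 and 138 in 5xFAD-Dp16. The ranges overlapped in every comparison, and the lowest value of all was a wild-type library of low length slope. Olig2 was 38.8, 26.8, 20.5 and 29.0 CPM in wild-type and 28.7, 40.6, 20.2 and 20.9 in Dp16, and with the transgenes 49.0, 30.1, 43.0 and 21.0 in 5xFAD against 46.6, 24.2, 27.2 and 36.7 in 5xFAD-Dp16.

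**Figure D1:**
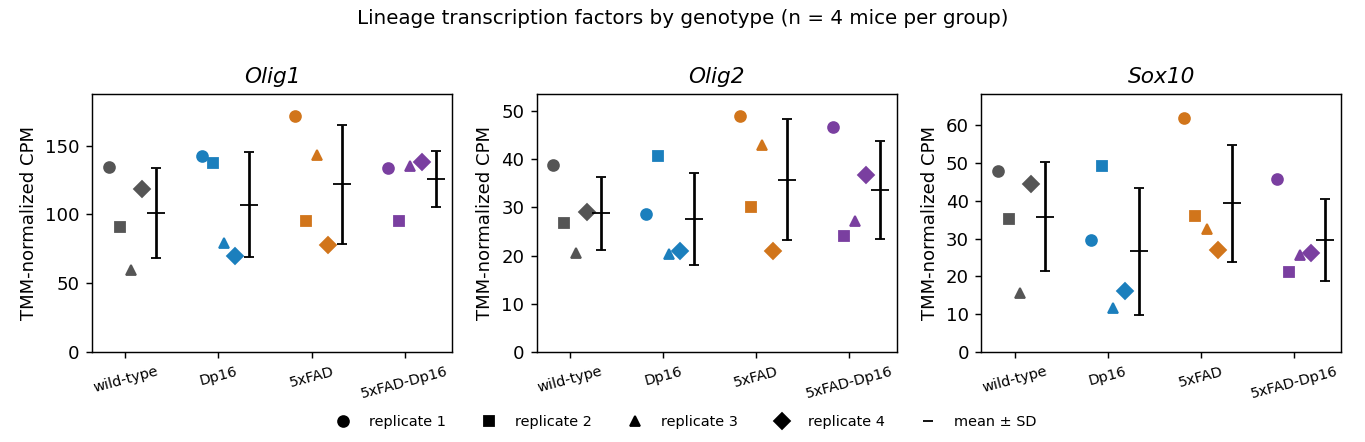
TMM-normalized CPM (vertical axes, linear from 0) of Olig1, Olig2 and Sox10 in the 4 genotype groups, with 1 point per library shaped by replicate number and bars for the mean ± SD (n = 4). The groups overlap in all 3 panels, and Olig1 ranges from 59.8 to 171 CPM over the 16 libraries.

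On the log2 scale, Olig1 differed by 0.081 ± 0.29 (± SE) and Olig2 by -0.076 ± 0.25 between Dp16 and wild-type (edgeR's quasi-likelihood test with Benjamini-Hochberg adjustment over all genes, adjusted p = 1 for both). Within 5xFAD cortex, in libraries that this first comparison did not use, the differences were 0.070 ± 0.29 and -0.076 ± 0.25. Averaged over both backgrounds, with 8 libraries a side, the 95% interval of the fold ran from 0.775 to 1.43 for Olig1 and from 0.730 to 1.23 for Olig2. Most other genes of the segment lay above 0. Over the 107 other tested genes between 75540514 and 97962622, the median log2 difference of this averaged comparison was 0.57, with 98 of 107 above 0. Of the 107, 11 lay below Olig1 and 7 below Olig2. Within 1 Mb of the pair, 28 of 30 other tested genes were above 0, with a median of 0.56, while the 425 tested genes elsewhere on chromosome 16 stood at a median of -0.0082. The lower and upper quartiles of the segment genes were 0.39 and 0.67, and the upper ends of the 95% intervals on the log2 scale were 0.52 for Olig1 and 0.30 for Olig2, so the interval of Olig1 reached into that range and the interval of Olig2 did not. With length slope added to the fit, the averaged differences were 0.14 ± 0.080 and -0.027 ± 0.11.

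The sequence upstream of Olig2 is shown because the gene is present in 3 copies while few tested genes of the segment had a lower difference. It is the part of the RefSeq promoter window (GRCm38.p6, plus strand, chr16:91225300-91225456) that precedes the first annotated transcript start. It holds none of the 4 motifs searched for on both strands (a SOX core, a MYRF motif and a pair of E-boxes, spelled out with the promoters of Enpp6 and Anln).
Olig2: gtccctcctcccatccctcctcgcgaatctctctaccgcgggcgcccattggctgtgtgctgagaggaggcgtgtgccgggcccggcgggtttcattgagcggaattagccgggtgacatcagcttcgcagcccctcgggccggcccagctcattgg

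Read against Sox10, a lineage transcription factor of chromosome 15 that is not triplicated, neither Olig gene passed a test for a difference between copy numbers. The Olig1 log2 ratio to Sox10 was 1.49, 1.37, 1.93 and 1.42 in the wild-type libraries and 2.26, 1.48, 2.77 and 2.11 in Dp16, and it was 1.47, 1.40, 2.14 and 1.52 in 5xFAD and 1.55, 2.17, 2.40 and 2.40 in 5xFAD-Dp16. The groups overlapped in both comparisons. The mean ratio was 1.52-fold higher in Dp16 than in wild-type (exact permutation test over libraries, two-sided, p = 0.0857, adjusted over the 4 ratio tests 0.171) and 1.41-fold higher in 5xFAD-Dp16 than in 5xFAD (p = 0.0571, adjusted 0.171). For Olig2 the ratio was 1.36-fold higher (p = 0.200, adjusted 0.200) and 1.26-fold higher (p = 0.143, adjusted 0.190) in the same exact tests. Without Dp16 replicate 3, the log2 ratios of Dp16 to wild-type went from 0.60 to 0.40 for Olig1 and from 0.44 to 0.24 for Olig2. None of the 4 tests passed the threshold of 0.05, and the smallest p that 4 libraries against 4 allow is 0.0286. With Myrf in place of Sox10, the Olig1 ratio differed by 0.51 on the log2 scale between Dp16 and wild-type, with no overlap between the groups (exact permutation p = 0.0286, not adjusted), and by 0.25 between 5xFAD-Dp16 and 5xFAD (exact permutation p = 0.114). Myrf itself averaged 39.7 CPM in wild-type and 28.5 in Dp16, and Olig1 101 and 107. Mbp was also tried as the reference, and with it the Olig1 ratios of the groups overlapped in both comparisons. The p-values of the ratios are not adjusted for the choice of reference.

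Sox10 itself was lower on average with 3 copies of the segment, without passing the test. It was 48.0, 35.1, 15.7 and 44.4 CPM in wild-type and 29.8, 49.2, 11.6 and 16.2 in Dp16, where replicates 3 and 4 were the lowest pair of that group, and it was 61.9, 36.1, 32.6 and 27.0 in 5xFAD and 45.7, 21.2, 25.6 and 26.2 in 5xFAD-Dp16. The log2 differences were -0.46 ± 0.42 without and -0.41 ± 0.42 with the transgenes. Myrf, which switches on myelin genes, averaged 39.7 ± 18.2 CPM in wild-type and 28.5 ± 9.85 in Dp16, and with the transgenes 43.9 ± 16.3 in 5xFAD against 38.4 ± 9.87 in 5xFAD-Dp16, with differences of -0.47 ± 0.33 and -0.16 ± 0.33. The 3 transcription factor genes outside the segment were all below 0 in both comparisons, at -0.47 to -0.46 and -0.60 to -0.16.

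Across the lineage, most members had a fitted difference below 0 with 3 copies of the segment, and edgeR without length slope in the fit called none. In Dp16 against wild-type, 32 of 33 members lay below 0, all but Olig1, with a median of -0.32, where 57.1% of all tested genes lay below 0 and their median was -0.033. In 5xFAD-Dp16 against 5xFAD, 29 of 33 lay below 0 with a median of -0.25, against 49.1% and 0.0046 for all tested genes. These comparisons share no library. In them, 29 members were below 0 both times and 1, Olig1, above 0 both times, while 57.3% of all tested genes had the same sign in both. Members varied together over the 16 libraries. In the pairs examined, r of log2 CPM ran from 0.74 (Olig1 and Sox10) to 0.87 (Olig1 and Olig2). Counts of members below or above 0, here and further on, are therefore not counts of independent results. The edgeR test called 0 of the 33 in each comparison (background 0.0057% of tested genes in the first and 0.0057% in the second), as did DESeq2 (background 0.0968% and 0.154%). With length slope added to the fit, edgeR called Anln in the first (adjusted p = 0.00277, background 0.0114%, lower) and Enpp6 (0.0180) and Anln (0.0379) in the second (background 0.285%). At an unadjusted p under 0.05, 5 members were lower in the first (background 0.906%) and 4 in the second (background 1.97%), with none higher in either.

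**Figure D2:**
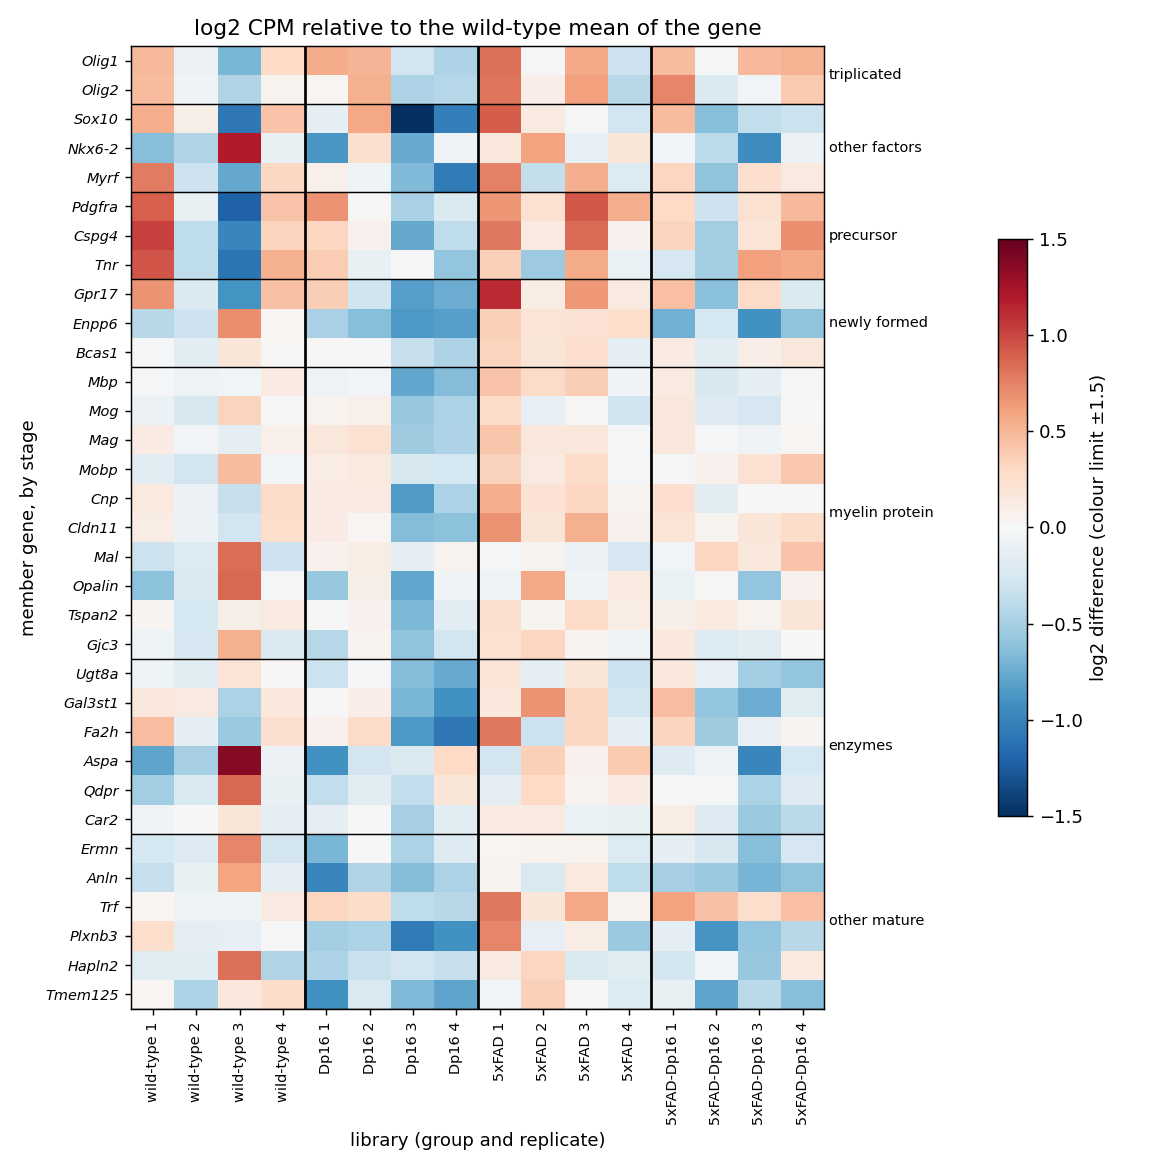
Log2 CPM of each of the 33 members (rows, grouped by stage) in each of the 16 libraries (columns, grouped by genotype), as the difference from the gene's wild-type mean, with red above and blue below and colours limited at 1.5 either way. Dp16 replicates 3 and 4 are blue over most rows, and wild-type replicate 3 is blue for the precursor genes and red for genes such as Aspa and Mal.

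The Dp16 libraries differed among themselves. The median over the 33 genes of log2 CPM relative to the wild-type mean was 0.0078 and 0.035 in Dp16 replicates 1 and 2, and -0.65 and -0.47 in replicates 3 and 4. In wild-type it ran from -0.18 to 0.088, with the highest value in replicate 3, the library of lowest length slope of all. The median ran from -0.098 to 0.35 in 5xFAD and from -0.20 to 0.13 in 5xFAD-Dp16. Within Dp16, replicates 3 and 4 are also the pair of low length slope. The median of the 6 other mature genes did not follow this split, at -0.60, -0.28, -0.56 and -0.45 in Dp16 replicates 1 to 4. Among these genes, Trf and Plxnb3 were lower in replicates 3 and 4 than in 1 and 2, and Ermn, Anln, Hapln2 and Tmem125 were not. Without the 3 libraries of lowest slope, which leaves 3 wild-type and 2 Dp16 libraries, the median of Dp16 against wild-type was -0.058, with 21 of 33 members below 0. Without Dp16 replicate 3 alone it was -0.18. The comparison within 5xFAD holds none of these libraries, and in the same fit its median was -0.26, with 29 of 33 below 0.

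By stage, the median difference of Dp16 against wild-type ran from -0.22 for the 10 myelin protein genes and -0.24 for the 3 precursor genes to -0.35 for the 6 enzyme genes, -0.40 for the 3 committed and newly formed genes, -0.46 for the 3 transcription factors outside the segment and -0.54 for the 6 other mature genes. Within 5xFAD cortex the medians in the same order were -0.17, -0.27, -0.26, -0.52, -0.41 and -0.39. Differences between stages were not tested. The precursor genes varied widely within groups. Pdgfra, the receptor for the growth factor that keeps precursors dividing, was 42.0, 20.9, 9.78 and 30.4 CPM in wild-type and 36.1, 22.8, 16.1 and 19.5 in Dp16, and with the transgenes 35.9, 26.6, 43.1 and 33.1 in 5xFAD against 27.8, 18.2, 26.6 and 31.6 in 5xFAD-Dp16. Its wild-type values alone spanned the range of the Dp16 values, and the log2 differences were -0.12 ± 0.35 and -0.41 ± 0.35. Cspg4, the NG2 proteoglycan of precursors, differed by -0.29 ± 0.37 and -0.27 ± 0.36.

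Enpp6, a phosphodiesterase that marks newly formed oligodendrocytes (chromosome 8, plus strand, chr8:46986887-47096762), gave the largest difference of any member. It was 9.40, 10.1, 20.3 and 12.9 CPM in wild-type and 8.97, 8.10, 6.90 and 7.11 in Dp16, so that every Dp16 library lay below every wild-type library, and the highest value of all was wild-type replicate 3. It was 16.1, 14.3, 14.6 and 15.1 in 5xFAD and 7.62, 10.4, 6.68 and 8.25 in 5xFAD-Dp16, again with no overlap. The log2 differences were -0.76 ± 0.23 (edgeR adjusted p = 1, unadjusted 0.00433) and -0.86 ± 0.23 (adjusted p = 0.932, unadjusted 0.00159). Without the 3 libraries of lowest slope they were -0.32 and -0.88. Gpr17, a receptor that is switched on in committed precursors and off again at maturity, differed by -0.40 ± 0.36 and -0.52 ± 0.36. Bcas1, a myelin-associated protein first made in newly formed oligodendrocytes, differed least of the 3, at -0.19 ± 0.15 and -0.10 ± 0.15, with a mean of 361 ± 36.5 CPM in wild-type and 317 ± 52.8 in Dp16.

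Among the other mature genes, Anln, anillin, a scaffold protein of the septin filaments in myelin (chromosome 9, minus strand, chr9:22332012-22389188), was 67.5, 79.3, 129 and 77.3 CPM in wild-type and 43.5, 62.7, 54.3 and 61.4 in Dp16. It was 88.4, 73.1, 94.7 and 65.7 in 5xFAD and 60.5, 58.3, 52.9 and 56.3 in 5xFAD-Dp16. All 8 libraries with 3 copies of the segment lay below all 8 libraries with 2, which held for Anln alone of the 33 members and for 0.0114% of tested genes. The log2 differences were -0.66 ± 0.18 (edgeR adjusted p = 0.954, unadjusted 0.00201) and -0.49 ± 0.18 (adjusted p = 1, unadjusted 0.0157). Without the 3 libraries of lowest slope they were -0.54 and -0.50. Plxnb3, a plexin receptor, was 20.4, 15.4, 15.6 and 17 CPM in wild-type and 11.9, 12.2, 8.19 and 9.07 in Dp16, and with the transgenes 28.2, 15.5, 18.4 and 11.6 in 5xFAD against 15.4, 9.17, 11.3 and 12.8 in 5xFAD-Dp16. Its Dp16 libraries lay below all wild-type libraries, whereas 5xFAD and 5xFAD-Dp16 overlapped, and the differences were -0.71 ± 0.22 and -0.58 ± 0.22, or -0.60 and -0.58 without the 3 libraries. Tmem125, which codes for a membrane protein, was 11.6, 8.22, 12.7 and 13.8 CPM in wild-type and 6.08, 9.69, 7.19 and 6.61 in Dp16, and 11.1, 14.5, 11.6 and 9.88 in 5xFAD and 10.5, 6.58, 8.64 and 7.30 in 5xFAD-Dp16. It overlapped in both comparisons, at -0.66 ± 0.21 and -0.52 ± 0.21. Enpp6, Anln and Plxnb3 were the 3 members without overlap between Dp16 and wild-type (background 0.575% of tested genes, lower), and Enpp6 and Anln the 2 without overlap between 5xFAD-Dp16 and 5xFAD (background 1.48%).

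**Figure D3:**
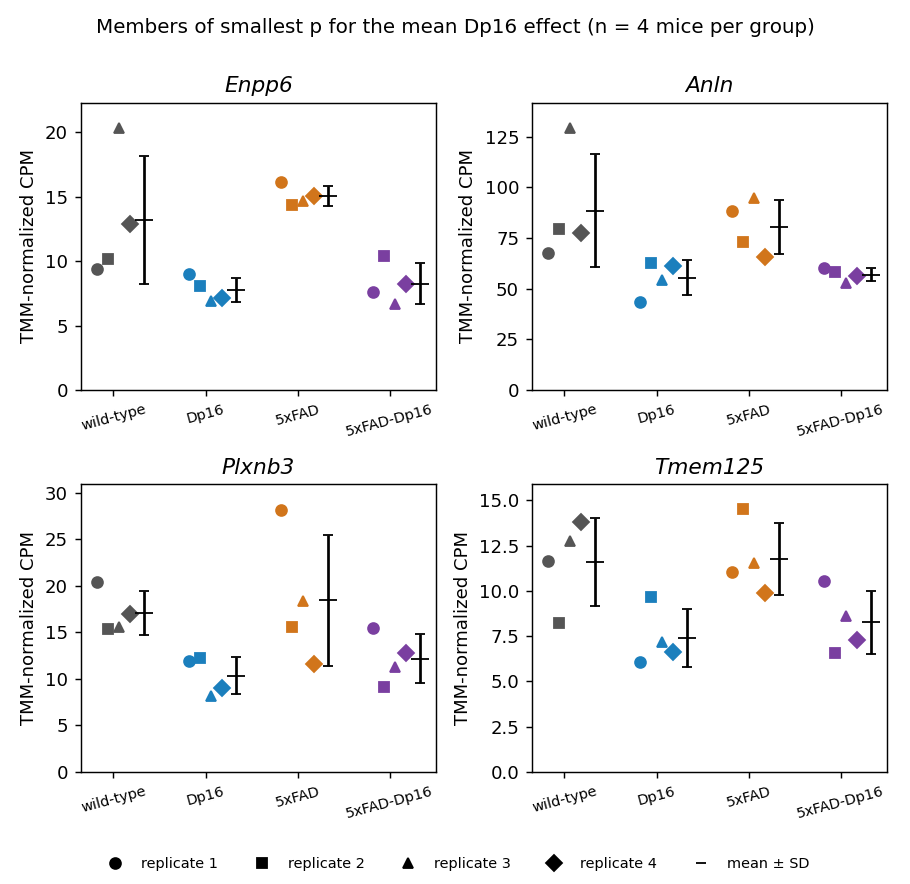
TMM-normalized CPM (vertical axes, linear from 0) of Enpp6, Anln, Plxnb3 and Tmem125, the 4 members of smallest p for Dp16 averaged over both backgrounds, with 1 point per library and bars for the mean ± SD (n = 4). Anln lies at 43.5 to 62.7 CPM in the 8 libraries with Dp16 and at 65.7 to 129 in the 8 without.

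With the 2 backgrounds averaged, 8 libraries against 8, 30 of 33 members lay below 0 (background 53.7%), with a median of -0.28 against -0.015 for all tested genes. The edgeR test called 0 of them (background 0.0968%), and 8 were lower at an unadjusted p under 0.05 (background 2.27%). The smallest p belonged to Enpp6 at -0.81 ± 0.16 (edgeR adjusted p = 0.105), Anln at -0.57 ± 0.13 (adjusted p = 0.190), Plxnb3 at -0.65 ± 0.15 (adjusted p = 0.298) and Tmem125 at -0.59 ± 0.15 (adjusted p = 0.385). Whether they were called depended on the fit. DESeq2 called 4 members lower (background 0.12%), namely Enpp6 (DESeq2 adjusted p = 9.42e-04), Anln (0.00796), Plxnb3 (0.0198) and Tmem125 (0.0438). edgeR with the length slope as a covariate called 6 lower (background 0.433%), namely Enpp6 (adjusted p = 5.64e-04), Anln (8.41e-05), Plxnb3 (0.00455), Tmem125 (0.0340), Ermn (0.0215) and Aspa (0.0460). Without the low-count filter edgeR called Enpp6 (adjusted p = 0.00338), Anln (0.0303) and Plxnb3 (0.0390) (background 0.107%). It called Enpp6 and Anln without wild-type replicate 1 (adjusted p = 0.0486 for both, background 0.0167%) and Enpp6 without wild-type replicate 3 (adjusted p = 0.0270, background 0.0447%). Without the 3 libraries of lowest slope, 28 of 33 members lay below 0 with a median of -0.17, and edgeR gave Enpp6 at -0.60 (adjusted p = 0.142), Anln at -0.52 (0.0698) and Plxnb3 at -0.59 (0.222), with 0 members called (background 0.0328%, lower). Ermn codes for ermin, a cytoskeletal protein of mature oligodendrocytes, and Aspa for aspartoacylase, which frees acetate for lipid synthesis.

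The upstream sequences of Enpp6 and Anln are shown because both genes were lower in each Dp16 comparison without overlap. Both are RefSeq windows on GRCm38.p6, printed 5' to 3' on the gene's strand up to RefSeq's transcript start, which for Anln lies upstream of the GENCODE start given above, Enpp6 at chr8:46986637-46986886 on the plus strand and Anln at chr9:22389207-22389456 on the minus strand. Capitals mark the single match to any of the 4 motifs searched for on both strands, a generic E-box CANNTG in Anln. The other motifs were the SOX core, spelled ACAAAG, the binding motif of MYRF, spelled CTGGNAC, and the Olig-type E-box, spelled CAGATG, which is itself an instance of the generic E-box.
Enpp6: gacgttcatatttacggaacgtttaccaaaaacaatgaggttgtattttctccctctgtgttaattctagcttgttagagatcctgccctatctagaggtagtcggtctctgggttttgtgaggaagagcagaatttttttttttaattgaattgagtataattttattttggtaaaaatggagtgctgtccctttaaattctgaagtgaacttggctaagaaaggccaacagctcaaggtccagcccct
Anln: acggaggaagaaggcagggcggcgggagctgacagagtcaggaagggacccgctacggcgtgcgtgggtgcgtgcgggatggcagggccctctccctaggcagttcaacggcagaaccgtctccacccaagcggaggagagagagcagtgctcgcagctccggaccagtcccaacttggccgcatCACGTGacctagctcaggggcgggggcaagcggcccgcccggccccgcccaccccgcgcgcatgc
Among the 29 windows of 300 bases that the table holds for 24 of the 33 members, 8 held the SOX core (18.7% of all 32851 windows did), 8 the MYRF motif (19.3%), 20 an E-box (72.3%) and 7 the Olig-type E-box (17.2%).

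None of the 10 myelin protein genes was called in either Dp16 comparison. Mbp was 4728, 4547, 4656 and 5198 CPM in wild-type and 4514, 4628, 2792 and 3033 in Dp16, where replicates 1 and 2 lay in or next to the wild-type range and replicates 3 and 4 below it. It was 6446, 5809, 6182 and 4587 in 5xFAD and 5229, 4033, 4348 and 4711 in 5xFAD-Dp16. The log2 differences were -0.35 ± 0.18 and -0.33 ± 0.18, and averaged over both backgrounds -0.34 ± 0.13 (edgeR adjusted p = 0.935). Mog, a surface glycoprotein of the outermost myelin layer, differed by -0.21 ± 0.17 and -0.048 ± 0.17, and Mag, the glycoprotein of the innermost layer that faces the axon, by -0.11 ± 0.18 and -0.15 ± 0.18. Opalin, a membrane protein of the myelin paranodes, differed by -0.39 ± 0.29 and -0.31 ± 0.29, and Cldn11, the claudin of myelin tight junctions, by -0.25 ± 0.20 and -0.20 ± 0.20. Of the 10 myelin protein genes, 10 and 9 lay below 0 in the 2 comparisons.

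All 6 lipid and metabolic enzyme genes lay below 0 in both comparisons, at -0.46 to -0.19 and -0.51 to -0.22. Ugt8a, the enzyme that makes the galactolipid galactocerebroside, averaged 70.9 ± 7.67 CPM in wild-type and 53.2 ± 12.8 in Dp16, and with the transgenes 70.4 ± 12.3 in 5xFAD against 60.0 ± 15 in 5xFAD-Dp16, with differences of -0.42 ± 0.19 and -0.22 ± 0.19. Fa2h, which hydroxylates the fatty acids of those lipids, differed by -0.35 ± 0.30 and -0.25 ± 0.30. Car2, the carbonic anhydrase of oligodendrocytes, differed by -0.19 ± 0.16 and -0.26 ± 0.16. None of the 6 was called by edgeR in either comparison.

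**Figure D4:**
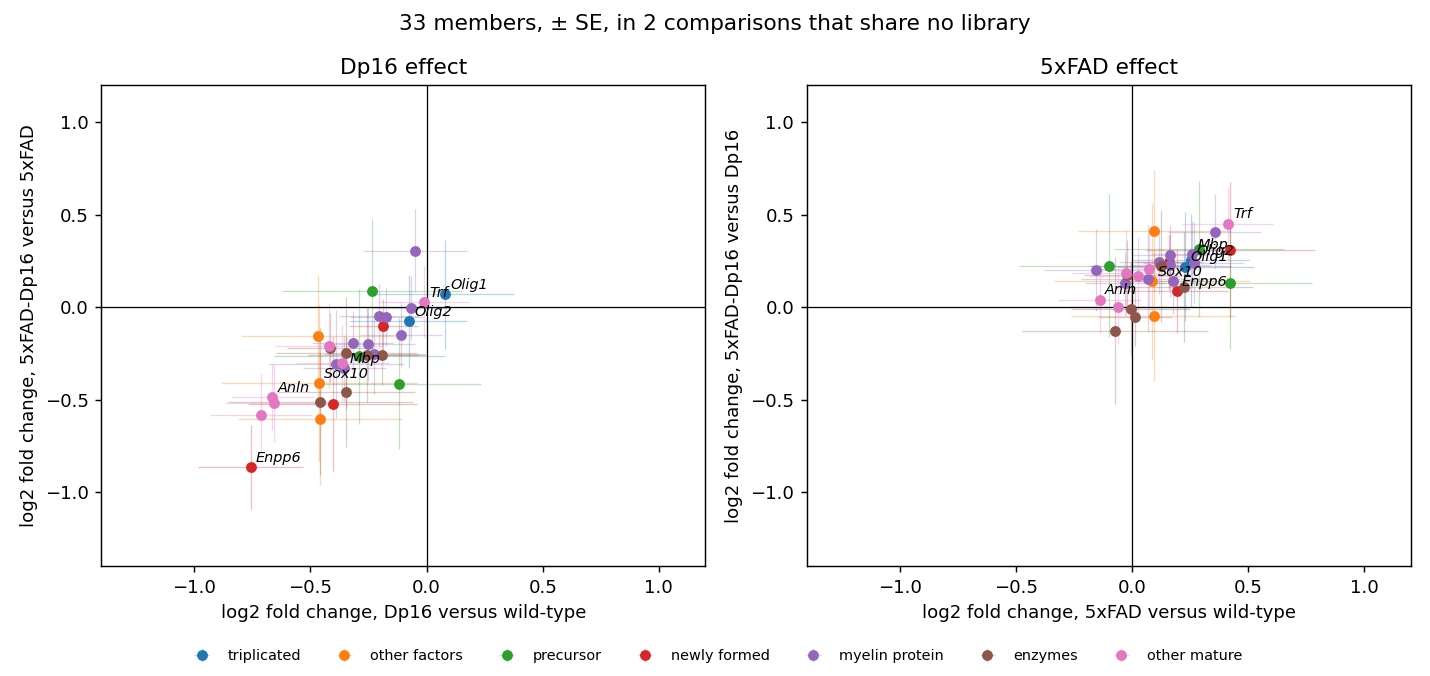
Log2 fold changes of the 33 members with SE bars, coloured by stage. The left panel sets the Dp16 effect without 5xFAD (horizontal axis) against that within 5xFAD (vertical axis), and the right panel sets the 5xFAD effect without Dp16 against that within Dp16. The axes of a panel share no library. In the left panel 29 points lie below 0 on both axes, with Enpp6 farthest out, and in the right panel 22 lie above 0 on both, among them Trf and Cldn11.

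With the amyloid transgenes, most members had a fitted difference above 0, and edgeR without length slope in the fit called none. In 5xFAD against wild-type, 24 of 33 members lay above 0 (background 41.2%), with a median of 0.12 against -0.055 for all tested genes. In 5xFAD-Dp16 against Dp16, whose libraries are other ones, 29 lay above 0 (background 51.2%), with a median of 0.20 against 0.0082. In both, 22 members were above 0 and 2 below 0, and 64.0% of all tested genes had the same sign. The edgeR test called 0 members in each (background 1.52% and 0.387%), DESeq2 also called 0 (background 2.68% and 1.02%), and at an unadjusted p under 0.05 there were 0 and 1 (backgrounds of higher genes 5.2% and 3.18%). The second comparison holds Dp16 replicates 3 and 4, and when the 3 low-slope libraries were left out its median was 0.0040, with 17 of 33 above 0. Without Dp16 replicate 3 alone it was 0.054. In the same fit the median of 5xFAD against wild-type was 0.16, with 28 of 33 above 0.

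Trf, transferrin, the iron carrier that oligodendrocytes of the brain make, was the member of smallest p in both. It was 451, 419, 419 and 487 CPM in wild-type and 554, 538, 341 and 331 in Dp16, and with the transgenes 767, 503, 663 and 461 in 5xFAD against 676, 603, 533 and 607 in 5xFAD-Dp16, so that wild-type and 5xFAD overlapped at a single library. The log2 differences were 0.41 ± 0.20 (edgeR adjusted p = 0.710) and 0.45 ± 0.20 (adjusted p = 0.980), or 0.37 and 0.15 without the 3 libraries of lowest slope. Cldn11 was 149.6, 129.5, 113 and 166 CPM in wild-type and 219.8, 157, 199.96 and 144 in 5xFAD, which overlapped, and differed by 0.36 ± 0.20 and 0.41 ± 0.20. Mbp, which followed in 5xFAD against wild-type, differed by 0.26 ± 0.18 and 0.29 ± 0.18. Tspan2, a tetraspanin of myelin, followed in 5xFAD-Dp16 against Dp16, at 0.28 ± 0.16. Olig1 and Olig2 differed by 0.23 ± 0.30 and 0.25 ± 0.25 in the first comparison and by 0.22 ± 0.29 and 0.25 ± 0.25 in the second. In 5xFAD the female libraries, replicates 1 and 3, lay above both males for Trf, Cldn11 and Mbp, and below both for Aspa and Opalin. Over all members, the medians relative to wild-type were 0.35 and 0.22 in these females against 0.14 and -0.098 in the males. Their length slopes were also higher, at 0.16 and 0.12 against -0.13 and -0.065. Whether the transgene difference depends on sex was not tested.

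Averaged over both Dp16 backgrounds, 28 of 33 members lay above 0 (background 45.8%) with a median of 0.16, and edgeR called 0 of them (background 2.18%), as did DESeq2 (background 3.49%). At an unadjusted p under 0.05 there were 3, all higher (background 5.99%): Trf at 0.43 ± 0.14 (edgeR adjusted p = 0.194), Cldn11 at 0.38 ± 0.14 (0.347) and Mbp at 0.27 ± 0.13 (0.574). All members of 5 stages lay above 0, and the 5 members below 0 were 3 of the 6 enzyme genes and 2 of the 6 other mature genes. With the length slope as a covariate, edgeR called Cldn11 at 0.33 ± 0.080 (adjusted p = 0.0128) and Trf at 0.40 ± 0.10 (adjusted p = 0.0230) (background 4.63%, higher). In the same fit Pdgfra was called in 5xFAD against wild-type, at 0.54 ± 0.13 (adjusted p = 0.0100, background 3.99%, higher), and stood at -0.069 ± 0.13 in 5xFAD-Dp16 against Dp16 (adjusted p = 0.983).

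In mice with both genotypes, 21 of 33 members lay below the wild-type level (background 58%), with a median of -0.077 against -0.040 for all tested genes. edgeR and DESeq2 each called 0 (background 0.501% in edgeR and 1.3% in DESeq2), and at an unadjusted p under 0.05 there were 4 lower (background 0.877%) and 1 higher (background 3.65%). The smallest p belonged to Anln at -0.62 ± 0.18 (edgeR adjusted p = 0.249), Enpp6 at -0.67 ± 0.23 (0.488) and Tmem125 at -0.49 ± 0.21 (0.963). Anln was lower without overlap (background 0.57%), and Trf, at 0.44 ± 0.20, was higher without overlap (background 2.34%). With length slope added to the fit, Anln was called (adjusted p = 0.00451, background 0.0911%, lower).

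The Dp16 difference was not shown to depend on the transgenes. The interaction of the 2 genotypes called 0 of 33 members and 0 of 17555 genes in edgeR (background 0%), DESeq2 called 0 members (background 0.0057%), and 0 members had an unadjusted p under 0.05 (background 0.433% higher and 0.929% lower). The smallest p belonged to Mal, a proteolipid of compact myelin, at 0.35 ± 0.32, Ugt8a at 0.20 ± 0.26 and Anln at 0.18 ± 0.25 (edgeR adjusted p = 1 for each). The interaction's median over the members was 0.054, and -0.19 once the 3 low-slope libraries were left out. The 95% interval for Mal ran from -0.32 to 1.03.

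**Figure D5:**
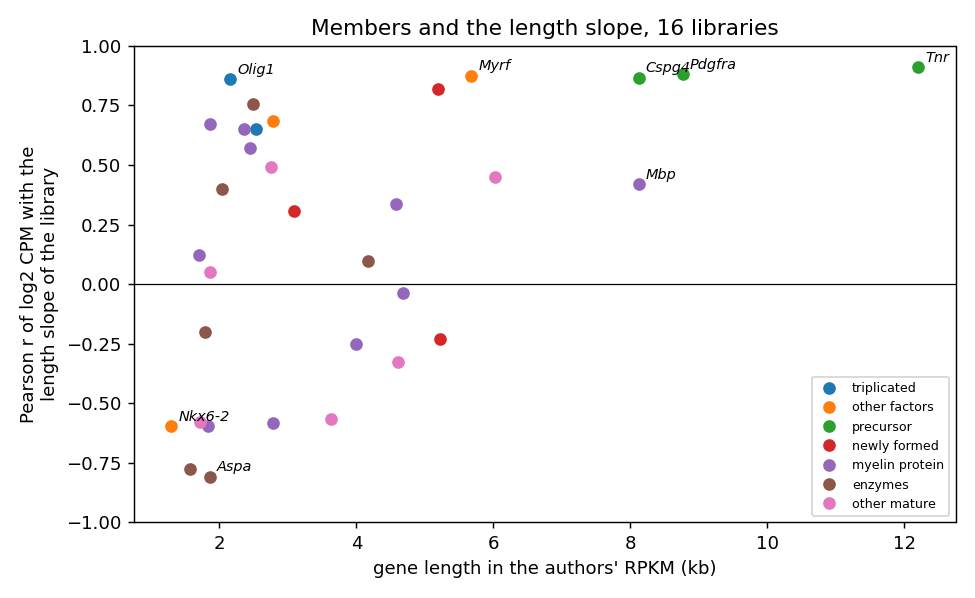
Pearson correlation of each member's log2 CPM with the length slope of the library over the 16 libraries (vertical axis) against the gene length behind the authors' RPKM in kb (horizontal axis), 1 point per gene, coloured by stage. The precursor genes Cspg4, Pdgfra and Tnr, which with Mbp are the 4 longest members, lie between 0.87 and 0.91, and Aspa, a short gene, lies at -0.81.

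The length slope moved with many members. It also did so with Myrf, Olig1, the 3 precursor genes, Gpr17 and Aspa, among others, once group means were removed. It was fitted on log2 CPM of expressed protein-coding genes, which can include the members. A long gene thus follows it partly by construction, and the permutation p-values do not test an independent measure. Over the 16 libraries, 12 of 33 members correlated positively and 7 negatively with it at an adjusted p under 0.05 (Pearson, permutation test, adjusted over the 33). The share of all tested genes that would pass was not computed, so these counts do not set the members apart from other genes. Most of the 7 negative correlations shrank without the 2 libraries of most extreme slope. There, r was -0.21 for Nkx6-2, -0.040 for Mal, -0.20 for Opalin, -0.17 for Ermn and -0.24 for Hapln2. For Aspa and Qdpr it was -0.59 and -0.46. Among the highest were Myrf, with r = 0.88 (rho = 0.90, adjusted permutation p = 8.25e-05 and 3.30e-04, r = 0.90 without the 2 libraries of most extreme slope and 0.90 within groups), and the 3 precursor genes. Tnr, tenascin-R of the precursor's matrix, had r = 0.91 (rho = 0.85), Pdgfra r = 0.88 (rho = 0.77) and Cspg4 r = 0.87 (rho = 0.83), with adjusted permutation p of 8.25e-05, 8.25e-05 and 8.25e-05 for r and 8.25e-04, 0.00445 and 8.25e-04 for rho. Without the 2 libraries of most extreme slope, r was 0.85, 0.75 and 0.78, and with group means removed it was 0.91, 0.95 and 0.90. Olig1, a gene of 2162 bases, also followed it, at r = 0.86 (rho = 0.73, adjusted permutation p = 1.98e-04 and 0.00839; 0.84 without the 2 libraries and 0.88 within groups), so length alone did not order the members. Enpp6 and Anln did not pass, at r = -0.23 (rho = -0.041) and -0.33 (rho = -0.038), with adjusted permutation p of 0.460 and 0.282 for r. With group means removed, r was -0.57 for Enpp6 and -0.61 for Anln. Without the 2 libraries of most extreme slope it was 0.22 and 0.17, so its sign depended on those libraries. Median gene length was 8767 bases for the precursor genes and 2778 for the 33 members.

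Further genes of the lineage, from lists of 12 precursor, 10 newly formed and 30 mature oligodendrocyte genes, held no called gene in any comparison named here. For Dp16 averaged over both backgrounds, 12 of 12 tested precursor genes, 8 of 9 newly formed genes and 27 of 30 mature genes lay below 0, with medians of -0.19, -0.20 and -0.21 against -0.015 for all tested genes. The genes of smallest p in each list were Ptprz1, a receptor phosphatase of precursors, at -0.37 ± 0.17, Nkx2-2, a transcription factor of differentiating cells, at -0.64 ± 0.24, and Ninj2, a cell adhesion protein, at -0.51 ± 0.22. The 17 genes of cholesterol synthesis and uptake, whose product makes up much of myelin, did not lean the same way, with 8 below and 9 above 0 and a median of 0.042. Of 20 ligands, receptors and inhibitors of the lineage, 17 lay below 0 and none was called. Erbb3, the neuregulin receptor of the lineage, was lowest, at 7.60 ± 3.18 CPM in wild-type and 3.89 ± 1.34 in Dp16, and with the transgenes 9.23 ± 3.85 in 5xFAD against 5.18 ± 3.21 in 5xFAD-Dp16 and a difference of -0.90 ± 0.29 (edgeR adjusted p = 0.781).

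With the transgenes, a few ligands and several immune genes linked to oligodendrocytes were called. Igf1, an insulin-like growth factor that promotes myelination, was 5.23, 4.96, 5.61 and 5.64 CPM in wild-type and 17.7, 16.1, 21.2 and 11.4 in 5xFAD, and rose by 1.60 ± 0.20 on the log2 scale (edgeR adjusted p = 4.18e-04). It was 4.33, 6.94, 5.76 and 5.47 in Dp16 and 13.1, 8.10, 6.12 and 9.89 in 5xFAD-Dp16, a difference of 0.71 ± 0.19 (adjusted p = 0.242), and its interaction of the 2 genotypes was -0.89 ± 0.27 (adjusted p = 1). Averaged over both backgrounds it rose by 1.15 ± 0.14 (adjusted p = 1.41e-04). Fgf2, a growth factor that acts on precursors, rose by 0.71 ± 0.16 in the averaged comparison (adjusted p = 0.0286). These were the 2 of 20 genes of their list called there (background 2.18%, higher), where 5xFAD against wild-type called 1 and 5xFAD-Dp16 against Dp16 called 0 of them. Of 10 genes reported in disease-associated oligodendrocytes, 5 rose in 5xFAD against wild-type (background 1.5%, higher) and 4 in 5xFAD-Dp16 against Dp16 (background 0.387%). Serpina3n, a serine protease inhibitor, rose by 2.73 ± 0.29 and 2.07 ± 0.28 (adjusted p = 1.57e-04 and 0.00347), and B2m, the light chain of MHC class I, by 1.52 ± 0.15 and 1.15 ± 0.15 (adjusted p = 7.98e-05 and 0.00253). Other glia also express these genes. The summed level of 7 microglia markers was 513 to 702 CPM in wild-type and 497 to 583 in Dp16, and with the transgenes 1490.2 to 2083 in 5xFAD against 757 to 1513 in 5xFAD-Dp16, and its part in these rises was not tested.

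Markers of other cells and regions moved with the groups as well, and no gene of these lists was at 0 in any group. In the Dp16 comparisons, where the members were lower, 7 of 7 astrocyte markers and 7 of 7 microglia markers lay below 0 in the average over both backgrounds, with medians of -0.21 and -0.35, and 7 of 8 neuron markers lay above 0, with a median of 0.094. The summed level of the neuron markers was 9236 to 11636 CPM in wild-type and 8839.9 to 11534 in Dp16, and with the transgenes 7457 to 8340.1 in 5xFAD against 7666 to 9961 in 5xFAD-Dp16, and that of 7 astrocyte markers was 4807 to 6631, 5014 to 5705, 6053 to 8170.0 and 5514 to 6337 in the same order. In Dp16, replicate 3, the library lowest in members, had the highest neuron level and the lowest level of 7 striatum markers, 445 CPM, where the other 15 libraries held 502 to 1200.4. Markers of the choroid plexus and ependyma ranged from 19.3 to 2309.6 summed CPM over the libraries, and Dp16 replicates 3 and 4 stood at 27.3 and 1298. Leptomeningeal fibroblast markers ran from 19.95 to 61.6 CPM and endothelial and mural markers from 269.7 to 452. The part of these differences in the members' values was not tested.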

How the data were processed

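RNA was extracted with TRIzol and poly-A libraries were made with a strand-specific kit and sequenced paired-end, per the labels' protocols. HTSeq 0.6.1, HISAT2 2.1.0, SAMtools 1.5, FastQC 0.11.5 and bcl2fastq appear in the submitters' processing notes, with the build GRCm38. Whether counting used strand is not stated in those notes, so overlapping and antisense genes may share reads. The authors deposited read counts per gene, not normalized, and RPKM values, which the authors scaled by library total and gene length, for 55385 genes. Per the table's title the annotation was GENCODE M24, and gene positions were read here from GENCODE M21 on GRCm38.

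Counts were tested with edgeR 4.0.16 (R 4.3.3), using TMM normalization, filterByExpr with a minimum count of 10, a sex term, all 16 libraries and a robust quasi-likelihood fit, with Benjamini-Hochberg adjustment over 17555 genes and a threshold of 0.05. The labels name separate samples, and p-values measure the spread between these samples. Length slopes used 11633 protein-coding genes of mean log2 CPM over 2. Scripts were tested on simulated data. Alternatives were DESeq2 1.42.0, limma 3.58.1 on log2(RPKM + 0.1) and log2(RPKM + 1), other normalization and filters, no sex term, a replicate block, a fit of the compared groups alone, leaving out each library or the 3 of lowest slope, and length slope as a term. Olig ratios used exact permutation tests, and correlations permutation tests in scipy 1.17.1. The members and lists were chosen with earlier results of these data known. Genes described singly were fixed examples of each stage, the members called and, with fewer than 3 called, the 3 of smallest p in each comparison. Library depth limits single genes little, since every member had at least 66 counts in every library.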

Additional observations from a re-analysis of the deposited data

Results flagged for a closer look

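In 6 of 132 sets of 4 libraries, each 1 member in 1 genotype group, the highest or lowest library lay apart from the other 3 by more than Dixon's 95% critical value for the gap over the range. Chance gives about 1 in 20 such sets. Wild-type replicate 3, the library of lowest length slope, was the library apart in 4 of them. Its CPM was 913 for Mal, where the other 3 wild-type libraries held 408 to 444. For Ermn it was 264 (others 131 to 139) and for Hapln2, a link protein at nodes of Ranvier, 69.2 (others 28.5 to 34.4). For Gal3st1, which makes the myelin lipid sulfatide, it was low, at 8.21 (others 12.5 to 12.8).

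Olig1 in 5xFAD-Dp16 replicate 2 was 95.2 CPM, below the other 3 libraries of its group at 133 to 138. Ermn in 5xFAD replicate 4 was 138 CPM, below the others at 162 to 165. The cause of these values was not tested.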

How the results depend on the processing

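Of 454 values of 20 main results under the alternatives, 440 kept their side of the threshold or their size. A median counted as kept when it moved by less than 0.217, the pooled within-group SD of the library medians, even if its sign changed. Of 3844 values of named genes, 3825 stayed on their side of the threshold and 19 passed it only under the alternative. A sign change counted as a reversal only for a gene called in a fit, and there were 0 of these. Signs of uncalled genes did change. Over the alternatives for Dp16 against wild-type, Olig1 ran from -0.21 to 0.25 and Mog from -0.37 to 0.13. Enpp6 stayed at -0.90 to -0.32 and Anln at -0.81 to -0.46. With length slope as a covariate, the number of members called went from 0 to 1 in Dp16 against wild-type, 1 in 5xFAD against wild-type, 1 in 5xFAD-Dp16 against wild-type, 2 in 5xFAD-Dp16 against 5xFAD, 6 for Dp16 averaged over both backgrounds and 2 for 5xFAD averaged over both. The averaged Dp16 comparison called 3 members without the low-count filter, 4 with DESeq2, and between 0 and 2 when each library was left out in turn. The low-count filter sets how many genes the adjustment runs over, and the cause of the other shifts was not tested. Without the 3 libraries of lowest slope the median over members was -0.058 in Dp16 against wild-type and -0.19 for the interaction. The Olig1 ratio with Myrf in place of Sox10 was 0.51 in Dp16 against wild-type. With each library left out, the log2 ratio to Sox10 in Dp16 against wild-type ran from 0.40 to 0.83 for Olig1 and 0.24 to 0.65 for Olig2, and within 5xFAD from 0.41 to 0.69 for Olig1. The Olig2 to Sox10 ratio within 5xFAD ran from 0.24 to 0.52 when each library was left out, with the highest value without 5xFAD replicate 3 (exact permutation p = 0.0286). Left-out libraries moved the median over members from -0.40 to -0.18 in Dp16 against wild-type, -0.32 to -0.20 in 5xFAD-Dp16 against 5xFAD, -0.13 to 0.0066 in 5xFAD-Dp16 against wild-type and -0.11 to 0.18 for the interaction. The sign of the median in 5xFAD-Dp16 against wild-type turned without wild-type replicate 4, and that of the interaction without Dp16 replicate 3, wild-type replicate 4 or 5xFAD replicate 4. Over all tested genes the counts called by edgeR, by DESeq2 and by edgeR with length slope were 1, 17 and 44 in Dp16 against wild-type, 1, 27 and 122 in 5xFAD-Dp16 against 5xFAD, 17, 64 and 178 for averaged Dp16, 266, 470 and 926 in 5xFAD against wild-type, 68, 179 and 212 in 5xFAD-Dp16 against Dp16, 88, 228 and 358 in 5xFAD-Dp16 against wild-type and 383, 613 and 1053 for averaged 5xFAD.

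The replicate numbers of the groups were also fitted as a block. Same-numbered libraries of different groups correlated at -0.32 to 0.47 in their deviations from the group means (mean 0.059), and 8 of 24 pairs exceeded 0.1. Libraries of other numbers had a mean of -0.019, and 24 of 72 pairs exceeded 0.1. Since not every same-numbered pair exceeded 0.1 and no label ties the numbers to a shared batch, they were not taken as pairs, and 7 of 16 libraries correlated best with their own number. With the replicate block, 0 members were called in each of the 8 comparisons, and the median was -0.32 in Dp16 against wild-type and -0.27 for Dp16 averaged over both backgrounds. The common biological coefficient of variation was 0.292, and 0.161 with length slope in the fit, which limits the differences that 4 libraries a group can show.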
